A study of Rattus norvegicus with 48 samples.

Results

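The proteasome subunit genes are followed here in rat lung after inhalation of oil vapor. Members were the rows of both deposited count tables whose symbol begins with Psma, Psmb, Psmc, Psmd, Psme, Psmf or Psmg and whose mean over all 48 libraries was at least 1 CPM (counts-per-million values, which scale a gene's count by the total of its library). The symbols took in 50 of 30045 rows and the level kept 48. The pair left out were the tissue-restricted core subunits Psma8 (0.0569 CPM) and Psmb11 (0.0982 CPM). Of the 48 members, 46 had a mean of at least 5 CPM. Each table was fitted alone: 48 members passed the filter on low counts in the repeated-exposure table and 47 in the single-exposure table, where the pseudogene-like copy Psme1-ps1 was dropped.

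The animals were male Sprague-Dawley rats of 200 to 250 g, kept in whole-body chambers with filtered air or with oil vapor at 300 ppm for 6 hours a day. Exposure lasted 1 day (single schedule) or 4 days a week for 4 weeks (repeated schedule, 16 exposure days), and lungs were collected either 1 or 28 days later. Each of the 8 groups held 6 animals with 1 library per animal, made from total RNA of a piece of lung after removal of ribosomal RNA. The animals' ages were not in the labels. The 24 libraries of each schedule came in a table of their own, so schedule, age and table cannot be told apart where the air groups of both schedules are compared. Likewise, time after exposure and age cannot be told apart where 28 days is compared with 1 day.

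The proteasome is the protease that degrades ubiquitin-tagged proteins. Its core particle is a barrel of alpha-subunit rings around beta-subunit rings, and 3 beta subunits carry the active sites. The regulatory particle caps the barrel: its ATPases (Psmc genes) unfold the substrate and thread it in, and its non-ATPase subunits (Psmd genes) bind and remove ubiquitin. Under interferon, cells make Psmb8, Psmb9 and Psmb10, which take the places of the active subunits Psmb5, Psmb6 and Psmb7, together with Psme1 and Psme2, which form an alternative cap. This immunoproteasome is known for cutting peptides that MHC class I molecules present, and in lung it is known from immune cells and from epithelium exposed to interferon.

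The promoters of the genes on which the results below turn are given first. They are 4 of the immunoproteasome, and 1 each of the regulatory-particle genes Psmc3 and Psmd4. Psmc3 was called over time and between schedules in air, in comparisons that share 1 air group. Psmd4 stood apart in single animals. Each sequence runs 5′ to 3′ on the gene's own strand, from RefSeq on the rat build GRCr8, and capitals mark matches on either strand to GAAANNGAAA (an interferon-stimulated response element) in Psmb8, Psmb10 and Psme2, to the GC box GGGCGG in Psmc3 and to the ETS-site letters CCGGAAG in Psmd4. Nothing is marked in Psmb9.
Psmb8, chr20:4656982-4657281, minus strand: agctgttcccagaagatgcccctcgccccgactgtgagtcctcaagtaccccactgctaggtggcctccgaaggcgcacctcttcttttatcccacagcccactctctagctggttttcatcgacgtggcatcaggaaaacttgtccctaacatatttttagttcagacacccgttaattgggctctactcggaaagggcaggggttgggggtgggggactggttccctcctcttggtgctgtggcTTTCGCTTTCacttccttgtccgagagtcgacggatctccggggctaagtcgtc
Psmb9, chr20:4668750-4669049, plus strand: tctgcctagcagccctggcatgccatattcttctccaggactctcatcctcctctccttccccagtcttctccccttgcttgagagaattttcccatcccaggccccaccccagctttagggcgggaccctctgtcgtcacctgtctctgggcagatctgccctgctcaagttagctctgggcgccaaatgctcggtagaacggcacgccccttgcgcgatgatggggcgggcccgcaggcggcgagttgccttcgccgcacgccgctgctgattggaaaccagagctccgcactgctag
Psmb10, chr19:50743243-50743542, minus strand: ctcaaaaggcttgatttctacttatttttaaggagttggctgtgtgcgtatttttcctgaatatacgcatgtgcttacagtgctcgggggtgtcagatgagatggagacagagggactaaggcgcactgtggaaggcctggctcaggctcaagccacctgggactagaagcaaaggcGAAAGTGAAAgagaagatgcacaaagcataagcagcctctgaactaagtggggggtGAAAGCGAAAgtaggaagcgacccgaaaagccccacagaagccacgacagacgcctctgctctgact
Psme2, chr15:33052702-33053001, minus strand: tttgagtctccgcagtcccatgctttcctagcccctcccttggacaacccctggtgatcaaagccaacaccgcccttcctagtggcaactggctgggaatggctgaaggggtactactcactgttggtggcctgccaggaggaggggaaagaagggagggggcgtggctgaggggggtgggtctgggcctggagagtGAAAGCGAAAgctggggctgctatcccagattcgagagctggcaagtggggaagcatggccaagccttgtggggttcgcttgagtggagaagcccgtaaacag
Psmc3, chr3:97487393-97487692, plus strand: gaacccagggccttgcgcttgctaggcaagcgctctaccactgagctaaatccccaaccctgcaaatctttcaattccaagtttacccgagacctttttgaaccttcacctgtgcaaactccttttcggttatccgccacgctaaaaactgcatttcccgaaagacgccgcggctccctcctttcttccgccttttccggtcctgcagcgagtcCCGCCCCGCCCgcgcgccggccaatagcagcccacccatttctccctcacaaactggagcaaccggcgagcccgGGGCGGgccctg
Psmd4, chr2:185297152-185297451, minus strand: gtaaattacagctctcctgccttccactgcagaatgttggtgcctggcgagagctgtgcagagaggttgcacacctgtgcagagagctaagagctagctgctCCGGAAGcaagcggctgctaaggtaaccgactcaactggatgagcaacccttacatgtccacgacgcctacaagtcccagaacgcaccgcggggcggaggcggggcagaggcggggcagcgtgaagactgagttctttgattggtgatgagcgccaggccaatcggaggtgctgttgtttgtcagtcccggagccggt

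A promoter sequence was matched for 43 members, and the same letters were searched on both strands in all 27457 RefSeq promoters of that length. GAAANNGAAA was found in 7 members (16.3%) against 3.77% of all promoters, and 3 of those 7 were immunoproteasome genes: Psmb8, Psmb10 with 2 matches, and Psme2. The other 4 were Psma4, Psmb3, Psmd7 and Psmg4. CCGGAAG was found in 15 members (34.9%) against 9.22%, and in 0 of the 5 immunoproteasome genes. GGGCGG was found in 31 members (72.1%) against 34.9%, CCAAT in 22 (51.2%) against 37.7%, TGACNNNGCA (an antioxidant response element core) in 4 (9.30%) against 2.91%, and TTCNNNGAA (a gamma-activated sequence) in 4 (9.30%) against 8.68%. These are matches of letters in 300 bases, which differ in base composition between promoters, and no binding was measured. On chromosome 20 of the same assembly Psmb8 and Psmb9 alternate with the peptide transporter genes in the order Tap2, Psmb8, Tap1, Psmb9, and on chromosome 15 Psme1 and Psme2 are separated by Emc9. The 48 members lie on 18 chromosomes.

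Libraries held 1537183 to 7157844 counts, and the members together took 0.252 to 0.320% of them (median 0.290%). Defining markers of lung were present throughout: the summed level of the alveolar type 2 list was 6531 to 19526 CPM, of the alveolar type 1 list 2086 to 5164 CPM and of the endothelial list 1627 to 3562 CPM. Animals 43, 5 and 44 stood apart. Animal 43 (repeated schedule, oil, 1 day), which also had the fewest counts (the next had 3602745), had an erythroid marker sum of 44012 CPM and animal 5 (single schedule, oil, 1 day) one of 14343 CPM, against at most 9054 CPM in the other 46 animals. Animal 44 (repeated schedule, oil, 1 day) had the lowest share of member counts (0.252%), the lowest macrophage and monocyte sum (5805 CPM), the highest endothelial sum (3562 CPM) and, after animal 43, the lowest alveolar type 2 sum (9608 CPM, against at least 13802 CPM in the rest). Without animals 43 and 5 no member was called in any comparison of oil with air.

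Every subunit class was present in each of the 8 groups at a level that moved little. The highest mean levels were those of Psme4 (a proteasome activator, 294 CPM), Psmd2 (a scaffold of the regulatory particle, 154 CPM) and Psmd1 (another scaffold, 153 CPM). The lowest were those of Psme1-ps1 (1.56 CPM), Psmd10 (a regulatory-particle assembly chaperone, 4.29 CPM) and Psmg3 (a core assembly chaperone, 6.00 CPM). CPM is not corrected for transcript length, so no order between genes is read from these levels. Within groups, the median member varied by an SD of 0.168 on the log2 CPM scale, against 0.243 for all genes of at least 1 CPM. That background is not matched for level. For 41 members the SD was under 0.25. Psmd1 (0.0913), Psmb1 (a core beta subunit, 0.0924) and Psmd8 (a regulatory-particle subunit, 0.0969) varied least. Psme1-ps1 (0.465), Psmb8 (0.431) and Psmg3 (0.292) varied most. Among genes of like level, the SD of Psmd1, Psmb1 and Psmd8 stood at percentiles 11.5, 4.12 and 1.71. Psme1-ps1 stood at percentile 36.6 and Psmg3 at 24.8, but Psmb8 at 93.2. The inhibitor Psmf1 (85.8) and the regulatory-particle subunit Psmd3 (82.2) were also high for their level. The 8 group means of a member spanned a median of 0.228 on the log2 scale, against 0.341 for all genes, again not matched for level. Within 0.5 stayed 46 members. Psmc3 (0.601), an ATPase of the regulatory particle, and Psme1-ps1 (0.629) were the exceptions. In bulk lung, fewer cells of a type and less RNA per cell cannot be told apart.

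Oil vapor was first compared with air 1 day after the single exposure, the time nearest to an effect of inhalation. A member is called changed where edgeR's quasi-likelihood test gave a Benjamini-Hochberg adjusted p under 0.05 over all genes tested, and differences are log2 fold changes (log2FC) with their standard error (SE). No member was called, of 47 tested, in a comparison that called 0% of all 14820 genes. At an unadjusted p under 0.05 there were 6 members (5 higher with oil), against a background of 10.1% of all genes, and DESeq2 and limma-voom each called 0 members. The members were mostly a little higher with oil: 37 of 47, with a median log2FC of 0.06 against 0.01 over all genes. The smallest p-values belonged to Psme4 (log2FC 0.16, SE 0.06, edgeR adjusted p = 0.372), the core alpha subunit Psma2 (0.14, SE 0.06, adjusted p = 0.427) and Psmb10 (0.19, SE 0.08, adjusted p = 0.466). The 95% interval of the difference lay within 1.5-fold in either direction for 45 of the 47 members, Psmb8 and Psmd10 being the exceptions. Among the structural classes, 5 of 7 alpha subunits, 5 of 7 constitutive beta subunits, 4 of 6 ATPases and 9 of 11 non-ATPase subunits were higher with oil, none of them called.

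28 days after the single exposure no member was called either, with 0% of all genes called. Unadjusted p was under 0.05 for 2 members, against a background of 8.21%, and DESeq2 and limma-voom each called 0. Of 47 members 19 were higher and 28 lower with oil, and all 47 intervals lay within 1.5-fold. In the fit without animal 5, 69 genes and 0 members were called. Psmd2 (log2FC −0.11, SE 0.05, edgeR adjusted p = 0.555), the ATPase Psmc2 (0.11, SE 0.05, adjusted p = 0.556) and the ATPase Psmc1 (0.10, SE 0.05, adjusted p = 0.642) had the smallest p-values. All 11 erythroid markers were lower with oil in this comparison (median log2FC −1.98, 0 called, and 5 called in the fit without animal 5), with sums of 1138 to 2647 CPM in oil and 2315 to 9054 CPM in air.

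After 16 days of exposure, the comparison of oil with air at 1 day called 0 of 48 members by edgeR, while 1 of 15005 genes was called (0.00666%). There were 5 members at an unadjusted p under 0.05 (2 higher, 3 lower), against a background of 9.29%. DESeq2 and limma-voom each called 1 member, Psmc3. Psmc3 stood at 45.8 CPM in the lowest, a median of 48.3 and 59.0 CPM in the highest of the 6 air animals, and at 46.2, 65.7 and 72.6 CPM in the oil animals, so 4 oil animals lay above all air animals and the groups overlapped. Its log2FC was 0.39 (SE 0.10, edgeR adjusted p = 0.201, DESeq2 adjusted p = 0.0438, limma-voom adjusted p = 0.0478). Psmd11, a lid subunit of the regulatory particle, had a log2FC of 0.23 (SE 0.06, edgeR adjusted p = 0.215), and the core beta subunit Psmb2 one of −0.21 (SE 0.07, adjusted p = 0.341). Psma2 was lower in every oil animal (38.3 to 63.8 CPM, median 61.3) than in any air animal (64.0 to 70.0 CPM, median 68.5). It was not called. The gap was narrow, and the lowest oil animals were 44 (38.3 CPM) and 43 (44.2 CPM), with the others at 59.7 CPM or more. Without animals 43 and 5 there were still 0 members called, 10 at an unadjusted p under 0.05 and 32 genes called. The members higher with oil numbered 22 with all libraries, 14 without those animals and 34 without animal 44. The intervals of 40 of 48 members lay within 1.5-fold.

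28 days after the repeated exposure, 0 of 48 members and 0% of all 15005 genes were called by edgeR. DESeq2 and limma-voom each called 0 members. An unadjusted p under 0.05 was seen for 2 members, both lower with oil, against a background of 4.86%. Here 34 of 48 members were lower with oil. In the fit without animal 43, 61 genes and 0 members were called. The core alpha subunit Psma1 (log2FC −0.19, SE 0.07, edgeR adjusted p = 0.751), the regulatory-particle subunit Psmd12 (−0.19, SE 0.08, adjusted p = 0.98) and the core alpha subunit Psma5 (−0.18, SE 0.09, adjusted p = 0.98) had the smallest p-values. For 46 members the interval lay within 1.5-fold.

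The oil effect was then compared between times and between schedules. The interaction of oil and time called 0 members in the single schedule (0% of all genes called; 2 members at an unadjusted p under 0.05, background 7.83%) and 0 in the repeated schedule (0.00666% of all genes called; 3 members at an unadjusted p under 0.05, background 7.8%). DESeq2 and limma-voom each called 0 members in both. The smallest p-values were those of Psme4 in the single schedule (log2FC of the interaction −0.19, SE 0.08, edgeR adjusted p = 0.592) and Psmb2 in the repeated schedule (0.30, SE 0.10, adjusted p = 0.488). The oil effect at 1 day differed between schedules for 0 of 48 members, with 0.0457% of all genes called, 5 members at an unadjusted p under 0.05 and a background of 9.74%. At 28 days it differed for 0 members, with 0% of all genes called, 1 member at an unadjusted p under 0.05 and a background of 5.2%. DESeq2 and limma-voom each called 0 members at both times. Psma2 (difference of log2FC, repeated minus single, −0.35, SE 0.10, edgeR adjusted p = 0.207) and Psmc3 (0.52, SE 0.16, adjusted p = 0.231) led at 1 day, and Psmc2 (−0.17, SE 0.07, adjusted p = 0.942) at 28 days.

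**Figure D1:**
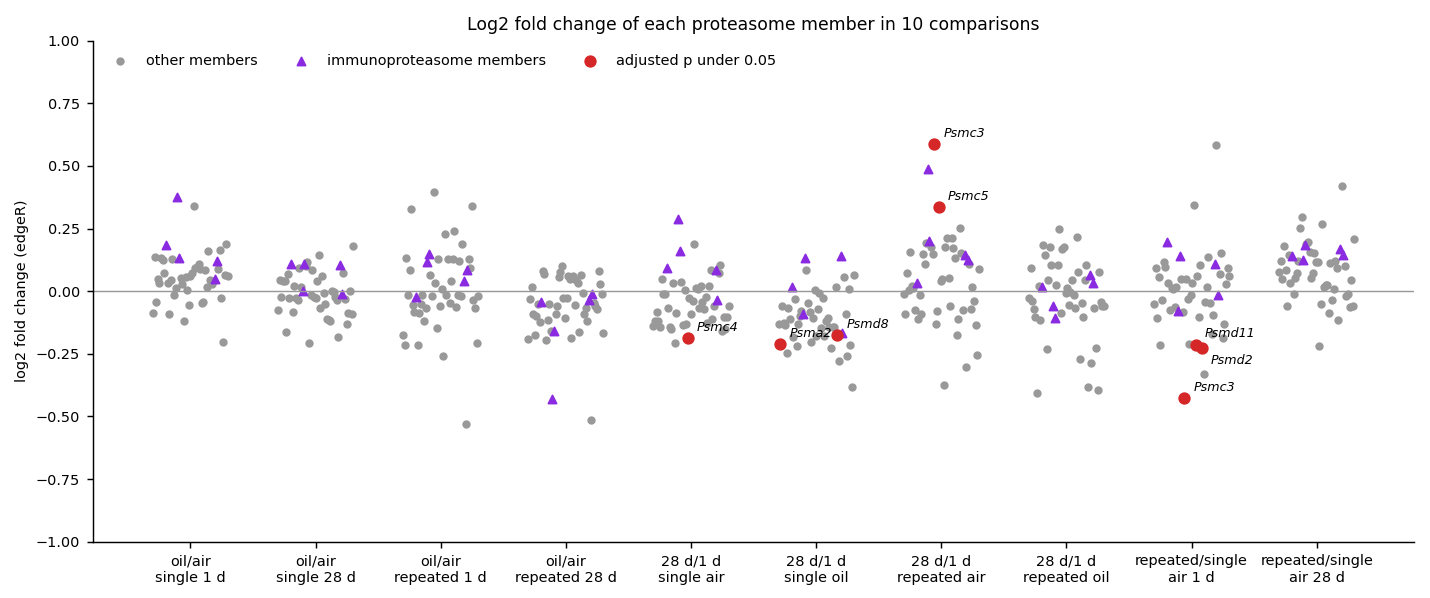
Log2 fold change of each member (1 symbol each: grey circles, purple triangles for the 5 immunoproteasome genes, red circles with names where edgeR's adjusted p was under 0.05) in the 4 comparisons of oil with air, the 4 of 28 days with 1 day and the 2 of schedules in air. The comparisons of oil with air hold no red circle, and Psmc3 in air of the repeated schedule (0.59) is the highest.

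The immunoproteasome genes were of interest because inhaled irritants can call up interferon. Psmb8, the subunit that replaces Psmb5, ran from 6.41 to 22.5 CPM (median 12.3) in air and from 10.8 to 25.9 CPM (median 16.6) in oil 1 day after the single exposure, so the groups overlapped over most of their range. Psmb9, the partner of Psmb6, ran from 35.2 to 38.6 CPM in air (median 37.3) and from 35.2 to 47.6 CPM in oil (median 39.9). Psmb10, which replaces Psmb7, ran from 31.9 to 39.3 CPM in air (median 36.3) and from 37.1 to 47.2 CPM in oil (median 39.04). Air and oil animals overlapped for each of these subunits. For the cap, Psme1 lay at 115 to 143 CPM in air and 124 to 147 CPM in oil, and Psme2 at 52.7 to 58.7 CPM in air and 48.6 to 65.9 CPM in oil. All 5 were higher with oil at this time (median log2FC 0.13), led by Psmb8 (0.38, SE 0.24, edgeR adjusted p = 0.636), and none was called. Without animal 5 all 5 were still higher (median log2FC 0.12), none called. The constitutive partners had log2FC of 0.13 (Psmb5), −0.01 (Psmb6) and 0.01 (Psmb7).

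With oil, 3 of 5 were higher 28 days after the single exposure (median log2FC 0.10), 4 of 5 at 1 day after the repeated exposure (0.08) and 0 of 5 at 28 days after it (−0.04), and edgeR, DESeq2 and limma-voom called none in any of the 4. It was 3 of 5 without animals 43 and 5 at 1 day after the repeated exposure (median log2FC 0.06). At 28 days after the repeated exposure, Psmb8 ran from 10.7 to 30.3 CPM in air (median 15.5). In oil it ran from 8.33 to 18.0 CPM (median 13.1). Its log2FC was −0.43 (SE 0.23, edgeR adjusted p = 0.98), and 3 air animals lay above every oil animal. The lowest of the 3 was at 18.2 CPM, against 18.0 CPM in the highest oil animal. Psmb9 there ran from 37.8 to 64.3 CPM in air and from 39.6 to 45.4 CPM in oil. The oil animals were the more alike of the pair of groups for both genes. Animal 83 was the highest air animal for both, and the other air animals reached 23.5 CPM for Psmb8 and 47.1 CPM for Psmb9.

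**Figure D2:**
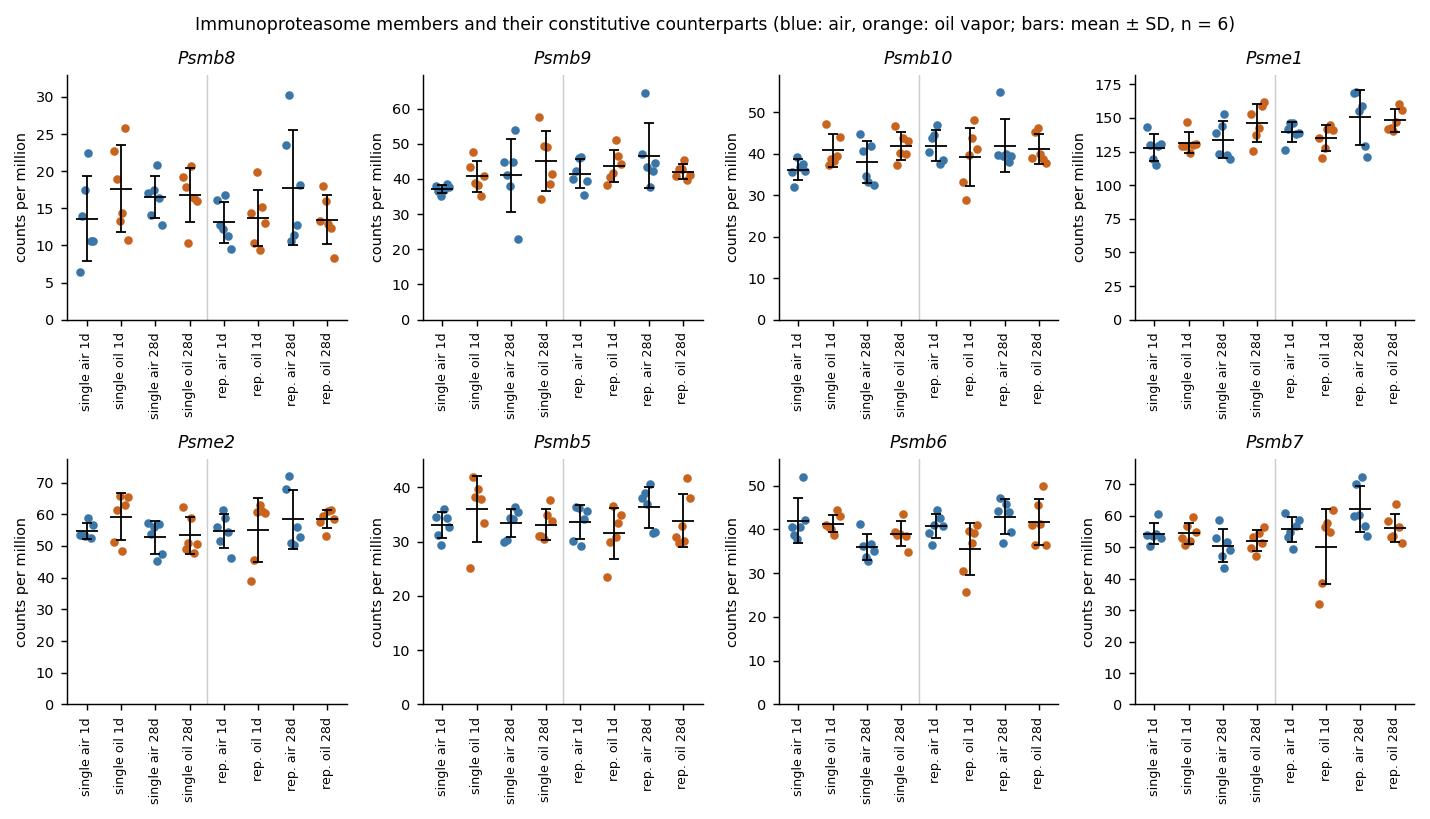
Level in CPM of the 5 immunoproteasome genes and of Psmb5, Psmb6 and Psmb7 in each animal (blue points air, orange points oil) with the group mean and SD (bars), over the 8 groups of 6 animals. Air and oil animals overlap in every pair of groups, and Psmb8 spreads from 6.41 to 22.5 CPM within 1 air group.

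A ratio within a library does not depend on its depth, so the share of immunoproteasome over constitutive active subunit was also taken per animal as a log2 ratio of CPM. Without length correction only differences of such a ratio can be read. Psmb10/Psmb7 averaged −0.59 ± 0.09 (SD, n = 6) in air and −0.42 ± 0.16 (SD, n = 6) in oil 1 day after the single exposure, a difference of 0.17 with an exact two-sided permutation p of 0.0433. Psmb9/Psmb6 averaged 0.02 ± 0.17 in air and 0.31 ± 0.22 in oil 1 day after the repeated exposure (SD, n = 6 each), a difference of 0.29 with an exact permutation p of 0.0281. Mean Psmb6 was 35.5 CPM in these oil animals and 40.7 CPM in air, and mean Psmb9 was 43.7 and 41.5 CPM. Psmb6 was lowest in animals 44 (25.8 CPM) and 43 (30.6 CPM), and animal 44 had the highest ratio of the group (0.65). Among the oil animals of the repeated schedule, Psmb9/Psmb6 was lower at 28 days than at 1 day, by a difference of −0.29 (exact permutation p = 0.0411). Oil minus air at 28 days of that schedule was −0.08 (exact permutation p = 0.563). Psmb10/Psmb7 was higher at 28 days than at 1 day in air of the single schedule by 0.17 (exact permutation p = 0.0238). Of 24 such tests, 4 had an unadjusted p under 0.05 and 0 passed after adjustment over the 24 (adjusted exact permutation p = 0.26 for each of the 4). The 4 are not separate observations. Both of Psmb10/Psmb7 share the air group of the single schedule at 1 day. Both of Psmb9/Psmb6 share the oil group of the repeated schedule at 1 day. The smallest p that 6 against 6 animals allow is 0.00216. Psmb8/Psmb5 had no exact permutation p under 0.268 in its 8 comparisons.

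Genes that work with the immunoproteasome were compared in the same way, and none passed the test at 1 day with all libraries. Of 13 genes of MHC class I presentation, 12 were higher with oil 1 day after the single exposure (median log2FC 0.13) and 11 after the repeated one (0.19), 0 called. These were 11 (0.11) and 8 (0.13) once animals 43 and 5 were left out. Examples are Tapbpl, a tapasin-related peptide editor (0.19, SE 0.07, edgeR adjusted p = 0.402), and Pdia3, a thiol oxidoreductase of the peptide-loading complex (0.19, SE 0.06, adjusted p = 0.354 after the repeated exposure). Of 24 interferon-response genes, 20 and 21 were higher at those times (median log2FC 0.19 and 0.12), 0 called, with the ubiquitin-like Isg15 at 0.45 (SE 0.17, adjusted p = 0.402) and the membrane tether Bst2 at 0.75 after the repeated exposure (SE 0.15, adjusted p = 0.0989). The summed level of the interferon list reached 3901 CPM in animal 5 and 8543 CPM in animal 43, against at most 2520 and 2186 CPM in the other oil animals of their groups. The median sum was 1843 CPM in oil and 1885 CPM in air after the single exposure, and 1837 and 1842.5 CPM after the repeated one. Without animals 43 and 5, 18 and 16 of the 24 were higher (median log2FC 0.10 and 0.05), and Bst2 was called after the repeated exposure. Of 13 lymphocyte markers tested, 10 were higher with oil 1 day after the single exposure (median log2FC 0.07) and 13 after the repeated one (0.35), and of 7 macrophage and monocyte markers 5 and 4, 0 called in either list. The lymphocyte markers that were higher numbered 4 and 9 without animals 43 and 5. At 28 days after the repeated exposure, 12 of the 13 lymphocyte markers (median log2FC −0.29), 11 of 13 MHC class I genes and 19 of 24 interferon genes were lower with oil, 0 called. In the fit without animal 43 these were 12, 11 and 20, with 1 lymphocyte marker (Nkg7) and 1 interferon gene (Rsad2) called.

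Over the 48 animals, with levels centred within groups, the immunoproteasome genes varied with parts of those lists. Of 185 relations (5 members with 37 genes), 31 had a Pearson r and 30 both an r and a Spearman rho with a permutation p under 0.05 after adjustment over the 185, from 100000 permutations. Of the 30, 29 were positive, and the negative one was Psmb10 with Canx of the MHC class I list (r = −0.56, rho = −0.60). The relation that passed for r alone was also negative: Psme2 with Rsad2 of the interferon list. It gave r = −0.52 (adjusted permutation p = 0.0262) and rho = −0.37 (adjusted permutation p = 0.0858), with r = −0.31 without animals 43 and 5. Psmb9 held 13 of the 30, Psmb10 and Psme2 6 each, Psme1 3 and Psmb8 2. Other members were not set against these lists, so these counts stand without a background. All pairs also share the depth and the make-up of each library. Psmb9 and its neighbour Tap1, a subunit of the peptide transporter, gave r = 0.69 and rho = 0.66 (adjusted permutation p = 0.00037 and 0.000925), with r = 0.65 in the single and 0.79 in the repeated schedule, 0.69 without the 2 animals farthest from the median and 0.69 without animals 43 and 5. Psme2 and Ifi27, an interferon-induced gene, gave r = 0.72 and rho = 0.68 (both adjusted permutation p = 0.000617), with 0.51 and 0.82 by schedule, 0.62 without the 2 farthest and 0.64 without animals 43 and 5.

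Psmb8 with Tap1, next to it on chromosome 20, gave r = 0.14 and rho = 0.03 (adjusted permutation p = 0.628 and 0.904), with r = 0.10 and 0.18 by schedule and −0.03 without the 2 farthest animals. Its closest relation in these lists was RT1-A2, a class I heavy chain of a near-identical gene family whose reads the authors' counting could split, at r = 0.65 and rho = 0.63 (adjusted permutation p = 0.00037 and 0.00132), with 0.74 and 0.55 by schedule, 0.61 without the 2 farthest and 0.66 without animals 43 and 5. Psmb9 with RT1-A2 gave r = 0.05 and rho = 0.04 (adjusted permutation p = 0.894 and 0.890), with 0.01 and 0.13 by schedule and 0.04 without the 2 farthest.

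More members were called between times after exposure than between oil and air. The same held for all genes, with 0.327 to 9.43% called between times and 0 to 0.00666% between oil and air. In air of the single schedule, 1 of 47 members, the ATPase Psmc4, was called between 28 days and 1 day, in a comparison that called 3.25% of all genes. Psmc4 stood at 60.3 to 66.6 CPM (median 62.0) at 1 day and 51.4 to 58.8 CPM (median 53.9) at 28 days, and no animal of one time reached the range of the other. It fell by 0.19 on the log2 scale (SE 0.05, edgeR adjusted p = 0.0308). The call ended in 7 of the 12 fits that left out 1 of these animals (animals 1, 4, 9, 17, 18, 20 or 22, adjusted p = 0.0547 to 0.0861). It also ended with DESeq2 (adjusted p = 0.0583), with all 48 libraries in one edgeR fit (0.228), with only the 12 libraries compared (0.113), without a filter on low counts (0.0812) and with marker sums of other tissues as covariates (0.0541). The next members were Psmb6 (−0.21, SE 0.07, edgeR adjusted p = 0.133) and Psmc2 (−0.13, SE 0.05, adjusted p = 0.168), and 4 members had an unadjusted p under 0.05, all lower at 28 days, against a background of 15.5%. Nfe2l1, the transcription factor that raises proteasome genes when the protease is blocked, rose (0.21, SE 0.05, edgeR adjusted p = 0.0221), the 1 gene called among 5 of its list.

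In oil of the single schedule, 2 of 47 members fell from 1 to 28 days, where 9.43% of all genes were called. Psma2 stood at 62.2 to 76.3 CPM (median 69.4) at 1 day and at 52.5 to 65.4 CPM (median 60.6) at 28 days, with 4 of 6 late animals below all early ones. It fell by 0.21 on the log2 scale (SE 0.06, edgeR adjusted p = 0.0155) and stayed called in all 12 fits that left out 1 animal. Its call ended with all 48 libraries in one edgeR fit (adjusted p = 0.0708) and with the covariates (0.0585). Psmd8, a lid subunit of the regulatory particle, stood at 55.0 to 59.8 CPM (median 56.6) and 44.8 to 54.8 CPM (median 51.4), without overlap. It fell by 0.17 (SE 0.05, edgeR adjusted p = 0.0374), and leaving out animal 5, 7, 14, 16, 28, 29 or 32 ended its call (adjusted p = 0.0581 to 0.0898). So did DESeq2 (adjusted p = 0.0535) and 4 other edgeR settings (0.0760 to 0.127). Without animals 43 and 5 the count was 1, since Psmd8 had an adjusted p of 0.0663. In all 38 of 47 members were lower at 28 days (median log2FC −0.11), 15 of them at an unadjusted p under 0.05, against a background of 24.4%. All 7 alpha subunits, all 7 constitutive beta subunits and 10 of 11 non-ATPase subunits were lower. These counts of direction stand without the share of all genes that were lower, so no fall particular to the proteasome is read from them. Psmd13, another lid subunit, missed the threshold (−0.18, SE 0.06, edgeR adjusted p = 0.0559).

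Other lists fell in the same comparisons. Of 10 genes of dividing cells, 6 fell in air and 8 in oil, and their summed level was 189 to 261 CPM in air and 180 to 273 CPM in oil at 1 day, against 107 to 164 and 91.9 to 127 CPM at 28 days. In oil, 7 of 11 erythroid markers and 5 of 8 liver markers tested also fell, and 0 of 12 heart markers tested were called. Of the 24 interferon-response genes 5 fell in oil: Ifi27 (−0.33, SE 0.08, edgeR adjusted p = 0.0123), the radical enzyme Rsad2 (−2.49, SE 0.65, adjusted p = 0.0155), Oasl, Mx1 and Irf7. In the fit without animal 5, 2 erythroid markers and 1 interferon-response gene, Ifi27, fell. The segregase Vcp, which delivers substrates to the proteasome, fell by 0.13 (SE 0.04, edgeR adjusted p = 0.0318), the 1 gene called among 14 tested for ubiquitin and delivery. The part of these cell types in the members' changes was not tested.

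In the repeated schedule different members were called, and the difference between schedules in the change over time was not tested. In air, 2 of 48 members rose from 1 to 28 days, where 0.327% of all genes were called, and both were ATPases. Psmc3 stood at 45.8 to 59.0 CPM (median 48.3) at 1 day and at 66.6 to 84.2 CPM (median 72.2) at 28 days, so every late animal was above every early one. Its log2FC was 0.59 (SE 0.10, edgeR adjusted p = 0.0195). Psmc5 stood at 41.9 to 48.4 CPM (median 43.9) and at 48.5 to 60.0 CPM (median 56.3), again without overlap, with a log2FC of 0.33 (SE 0.07, edgeR adjusted p = 0.0440). The lid subunit Psmd7 did not overlap either, at 60.2 to 69.0 CPM and 71.2 to 79.7 CPM, and missed the threshold (0.25, SE 0.07, edgeR adjusted p = 0.166). Unadjusted p was under 0.05 for 12 members (10 higher), against a background of 10.7%, and 9 of 11 non-ATPase subunits and 5 of 6 ATPases were higher at 28 days. Leaving out animal 36, 37, 38 or 88 ended the call of Psmc3 (adjusted p = 0.0556 to 0.0680), and leaving out animal 36, 37, 38, 39, 40, 82, 83, 87 or 88 that of Psmc5 (0.0658 to 0.138), which also ended without a filter on low counts (0.102). Psmc4, called lower at 28 days in air of the single schedule, had a log2FC of −0.08 here (SE 0.09, edgeR adjusted p = 0.846). Without animals 43 and 5, which are in neither group but share the fit, 3 members and 215 genes were called, Psmd7 now among them (edgeR adjusted p = 0.0184). Bst2 rose too (0.72, SE 0.14, edgeR adjusted p = 0.0257), the 1 gene called of the 24 interferon-response genes.

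In oil of the repeated schedule 0 of 48 members were called by edgeR between 28 days and 1 day, where 0.34% of all genes were called. There were 5 at an unadjusted p under 0.05 (4 higher), against a background of 15%, and DESeq2 and limma-voom each called 0. In the fit without animal 43, 156 genes and 0 members were called. Psmd2 (0.22, SE 0.07, edgeR adjusted p = 0.167), Psmb2 (0.18, SE 0.07, adjusted p = 0.223) and Psmc3 (0.25, SE 0.10, adjusted p = 0.252) had the smallest p-values. With all 48 libraries in one fit Psmd2 was called.

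**Figure D3:**
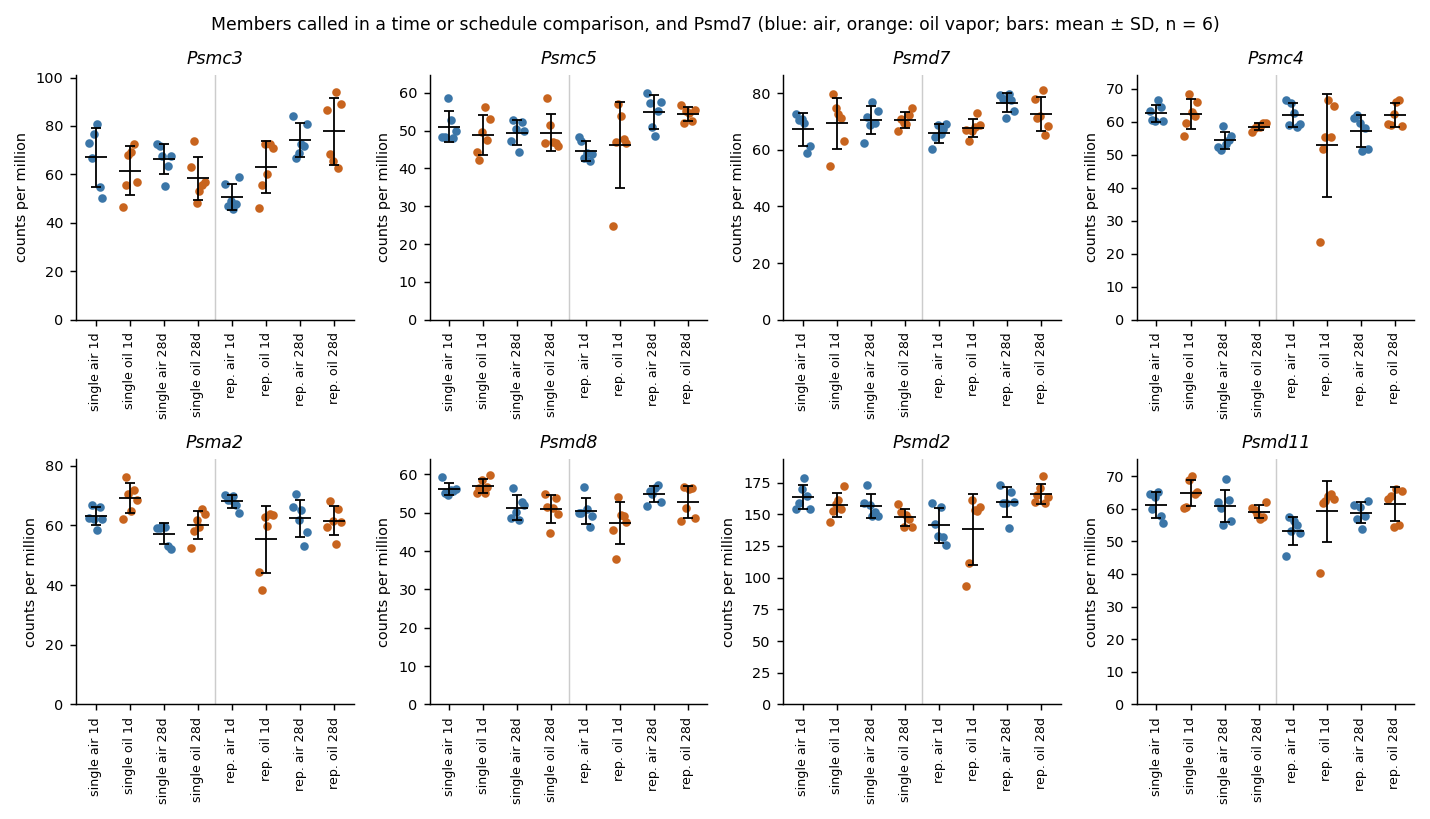
Level in CPM of the 7 members called in a comparison of times or of schedules, and of Psmd7, per animal (blue points air, orange points oil) with the group mean and SD, in the 8 groups of 6 animals. Psmc3 shows the lowest group in air of the repeated schedule at 1 day (50.7 ± 5.44 CPM) and stands at 74.1 ± 6.94 CPM there at 28 days.

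The air groups of both schedules were also compared, over all 48 libraries in one fit. At 1 day 3 of 48 members were lower in the repeated schedule, where 3.76% of all genes were called. These were Psmd2 (126 to 159 CPM against 154 to 178 CPM), Psmd11 (45.4 to 57.4 against 55.5 to 65.2 CPM) and Psmc3 (45.8 to 59.0 against 50.4 to 81.0 CPM), each with some overlap. Their log2FC, repeated against single, were −0.23 (SE 0.06, edgeR adjusted p = 0.0220), −0.21 (SE 0.06, adjusted p = 0.0238) and −0.43 (SE 0.12, adjusted p = 0.0243). The air animals of the repeated schedule at 1 day, the lowest group for Psmc3, also enter its call over time in air. They enter its call by DESeq2 and limma-voom for oil at 1 day too, so these calls are not separate observations. An unadjusted p under 0.05 was seen for 9 members (2 higher, 7 lower), against a background of 17%. The count was 0 without animal 3 or without animal 4, both air animals of the single schedule, and 4 without animals 43 and 5. Leaving out animal 1, 36, 38 or 39 ended the call of Psmc3 as well, animal 1, 34 or 40 that of Psmd11, and animal 37, 39 or 40 that of Psmd2. Of the genes of dividing cells 7 of 10 were called lower in the same comparison (sums of 112 to 186 CPM against 189 to 261 CPM), and the ubiquitin-activating enzyme Uba6 was called higher (0.23, SE 0.06, edgeR adjusted p = 0.0317). In the same list of ubiquitin and delivery Uba1, the main ubiquitin-activating enzyme, had a log2FC of −0.11 (SE 0.06, edgeR adjusted p = 0.301).

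At 28 days no member differed between the air groups by edgeR, with 0.0457% of all genes called. There were 9 members at an unadjusted p under 0.05, all higher in the repeated schedule, against a background of 8.67%. DESeq2 called 2 and limma-voom 0. Psmc2 was at 74.8 to 83.5 CPM in the single and 84.6 to 101 CPM in the repeated schedule, without overlap (log2FC 0.20, SE 0.05, edgeR adjusted p = 0.154, DESeq2 adjusted p = 0.0446). Psmb7 followed (0.30, SE 0.08, edgeR adjusted p = 0.154, DESeq2 adjusted p = 0.0422). All 5 immunoproteasome genes were higher in the repeated schedule by 0.12 to 0.18, with edgeR adjusted p from 0.552 to 0.962.

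The members of the assembly and activator classes were not called in any comparison. These are the core chaperones Psmg1 to Psmg4, the regulatory-particle chaperones Psmd5, Psmd9 and Psmd10, the activators Psme3 and Psme4 and the inhibitor Psmf1. Among 9 tested genes of the proteasome whose symbols fall outside the rule, such as the core maturation factor Pomp and the ubiquitin receptor Adrm1, 0 were called in the oil and time comparisons within schedules with all libraries, and 1, Zfand5, over time in oil of the repeated schedule without animal 43. With oil, 7 of the 9 were higher 1 day after the single exposure and 4 after the repeated one. Adrm1 had log2FC of 0.20 (SE 0.08, edgeR adjusted p = 0.446) and 0.16 (SE 0.09, adjusted p = 0.577) there.

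Animals 43 and 5 lay outside the range of the other animals for some members. In animal 43 the share of members was smaller than that of all genes, and in animal 5 the shares were near each other. In animal 43, 25 of 48 members (52.1%) lay outside the range of the other 46 animals, 6 above and 19 below, against 61.3% of all genes of at least 1 CPM. In animal 5 these were 7 members (14.6%), 3 above and 4 below, against 12.1% of genes. Psma6, a core alpha subunit, was at 153 CPM in animal 43 and 104 CPM in animal 5, against 55.7 to 81.3 CPM in the others. Psmd4, a ubiquitin receptor of the regulatory particle, was at 141 and 102 CPM, and Psmf1 at 104 and 61.6 CPM. The members above the others in both animals were these 3. In animal 43 the ATPases Psmc4 (23.4 CPM) and Psmc5 (24.7 CPM) and the alpha subunit Psma5 (20.8 CPM) were below all others, and so no shift common to all subunits was seen. With these animals all 11 erythroid markers were higher with oil at 1 day in both schedules (median log2FC 0.37 and 2.01), and without them 1 and 2 of the 11 were (−1.0 and −0.92), 0 called either way. The part of red-cell transcripts in these levels was not tested.

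**Figure D4:**
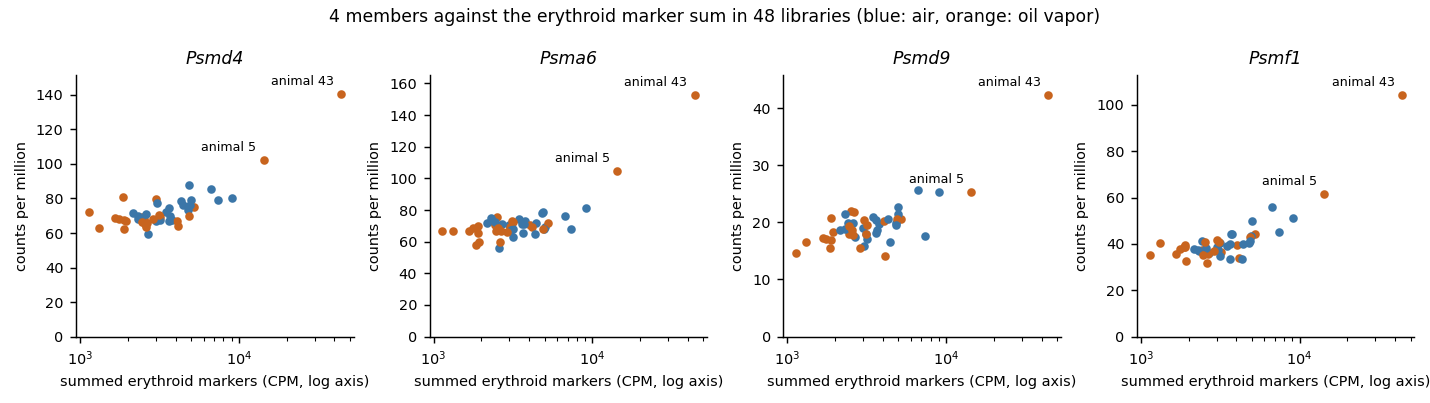
Levels of Psmd4, Psma6, Psmd9 and Psmf1 in CPM (vertical axes) against the summed level of 11 erythroid marker genes (horizontal axes, CPM, log scale), 1 point per animal, blue for air and orange for oil. Animal 43 (44012 CPM) lies to the upper right in all 4 panels, and animal 5 (14343 CPM) lies above all other animals but 43 for Psmd4, Psma6 and Psmf1.

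The correlations between members across animals had a low median. Over all 1128 pairs the median Pearson r of log2 levels centred within groups was 0.15 over the 48 libraries, and 0.12 without animals 43 and 5. The 10 pairs among immunoproteasome genes had a median of 0.29, and 0.33 without those animals, highest for Psmb9 and Psmb10 over the 48 (0.60) and for Psmb10 and Psme2 without those animals (0.63). The highest r of all, 0.86 between Psmd4 and Psmf1, was 0.53 without those 2 animals, and the lowest, −0.75 between Psma6 and Psmc4, was 0.04. The 6 pairs of Psmd4, Psma6, Psmd9 and Psmf1, chosen after their values were seen, had a median of 0.77 with them and 0.34 without. Without the 2 animals the highest r was 0.66, between Psmd2 and Psmd3. By class, the medians without these animals were 0.15 within the alpha ring, 0.22 within the constitutive beta ring, 0.18 within the ATPases and 0.05 within the non-ATPase subunits. All pairs share the depth and the make-up of each library, and these are descriptions. The medians stand without that of other gene pairs, and members with few counts hold more counting noise. How closely the members are regulated together is therefore not read from them.

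**Figure D5:**
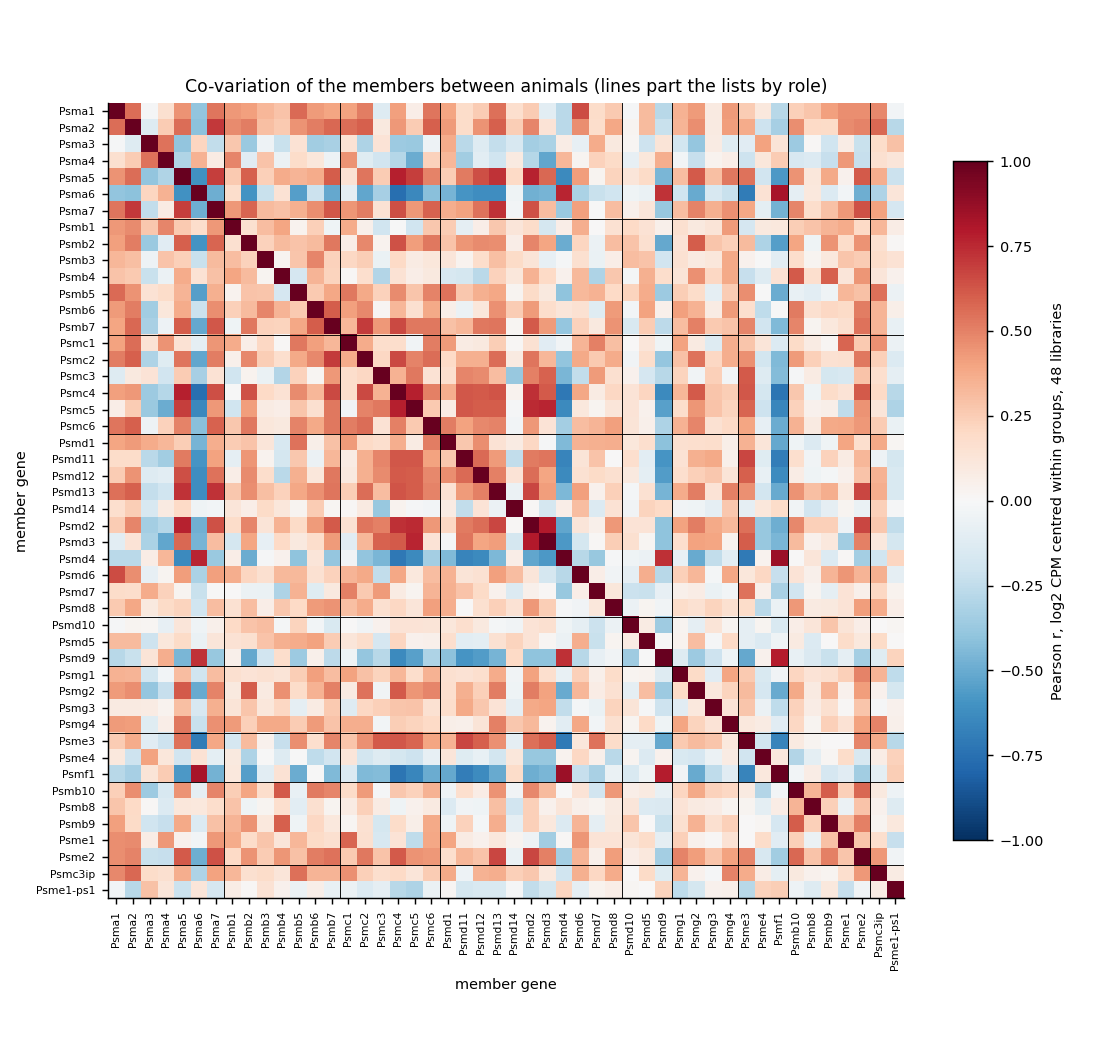
Pearson r (colour, −1 to 1) between all pairs of the 48 members over 48 libraries, on log2 CPM centred within groups, with lines between the lists by role. Psmd4, Psma6, Psmd9 and Psmf1 are red with each other (median 0.77) and blue with many of the remaining members (median −0.27).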

How the data were processed

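RNA of 48 rat lungs was sequenced on stranded total-RNA libraries prepared from 1 microgram of RNA with 12 PCR cycles. The values are the raw read counts per gene that the authors deposited in 2 tables of 24 libraries and 30045 genes. The submitters' processing notes name bcl2fastq 2.19, Trimmomatic 0.35, HISAT2 2.1.0, SAMtools 1.8, HTSeq 0.6.1 and the build Rnor_6.0. Which annotation was counted, and whether by strand, is not given in the sources used here. Reads of overlapping or near-identical genes therefore cannot be told apart. For animal 32 the sample description names the other table, and its title and column, which place it in the single-exposure table, were followed.

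Counts were tested in edgeR 4.0.16 (limma 3.58.1, R 4.3.3) by glmQLFit and glmQLFTest, two-sided, with TMM factors and filterByExpr, in a group-means model over the 24 libraries of a schedule, or over all 48 for contrasts between schedules. Each fit ran over the whole table, with Benjamini-Hochberg adjustment over all genes tested. Counts of members or list genes higher or lower are given without the share of all genes in that direction. Groups without overlap are likewise given without the share of all genes that did not overlap. The members and the lists were chosen with earlier results of these data known. The lists used are the subunit classes, proteasome genes outside the symbol rule, ubiquitin and delivery, proteasome transcription factors, MHC class I presentation, interferon response and markers of lymphocytes, macrophages and monocytes, erythroid cells, heart, liver, alveolar type 1 and type 2 cells, endothelium and dividing cells. Named members are the immunoproteasome genes and their counterparts, up to 10 called in each direction per contrast, the 3 with the smallest p where fewer than 3 were called, and the 3 highest, lowest, most and least variable; of other lists up to 4 genes (2 in an oil contrast) by smallest p. Members named for groups without overlap or for animals 43 and 5 were picked with their values in view. Levels for spread and correlation are log2(CPM + 0.5). The scripts were tested on simulated data. Alternatives were DESeq2 1.42.0, limma-voom with sample weights, RLE factors, no filter, other sets of libraries, summed erythroid, heart and liver markers as covariates and leaving out each animal. The fits and list counts without animals 43 and 5, and those leaving out each animal for the air groups of both schedules at 1 day, were added after the data were seen. Animals were separate, and nothing says that libraries were made in separate batches. At the lowest depth, 3 counts correspond to 1.95 CPM, and at the highest to 0.419 CPM. Results of 2 list genes are not reported here.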

Additional observations from a re-analysis of the deposited data

Results flagged for a closer look

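Each member was examined in each group of 6 animals for a highest or lowest animal whose gap to the next exceeded the 95% critical value of Dixon's test over the group's range. Of 384 such groups 29 held one, and chance alone gives 19.2 at 1 in 20. In oil of the repeated schedule at 1 day, 7 were in animal 43: Psma6 at 153 CPM, Psmd4 at 141 CPM, Psmf1 at 104 CPM and Psmd9 at 42.3 CPM were highest, and Psmc4 at 23.4 CPM, Psmc5 at 24.7 CPM and Psmd11 at 40.3 CPM were lowest. The others of that group lay between 66.8 and 70.2 CPM for Psma6 and between 51.9 and 66.6 CPM for Psmc4. In oil of the single schedule at 1 day, 5 were in animal 5: Psma6 at 104 CPM, Psmd4 at 102 CPM and Psmf1 at 61.6 CPM were highest, and Psmc1 at 72.8 CPM and Psme3 at 29.5 CPM were lowest.

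The remaining 17 were spread over 13 animals. Animal 6 (oil, single schedule, 1 day) was highest for Psma1 (89.5 CPM), Psmd6 (77.3 CPM) and the core assembly chaperone Psmg2 (21.9 CPM). In the same group Psmc2 was lowest in animal 16 (83.7 CPM), Psmd10 highest in animal 13 (5.77 CPM) and Psme1 highest in animal 7 (147 CPM). In air of that schedule at 1 day, animal 9 was highest for Psmb6 (52.1 CPM) and Psmg2 (22.1 CPM), animal 4 for Psmc6 (85.5 CPM) and animal 1 for Psmd8 (59.2 CPM). In air at 28 days, animal 17 was lowest for the deubiquitinase Psmd14 (31.1 CPM) and animal 23 highest for Psmf1 (51.3 CPM). In the repeated schedule, Psmb1 was highest in animal 38 (air, 1 day, 99.8 CPM) and lowest in animal 44 (oil, 1 day, 68.5 CPM), and Psmg2 was lowest in animal 40 (air, 1 day, 13.7 CPM). Animal 83 (air, 28 days) was highest for both Psmb9 (64.3 CPM) and Psmb10 (54.9 CPM), where the other animals of its group reached 47.1 and 39.9 CPM.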

How the results depend on the processing

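No paired analysis was possible because the animals carry unique numbers and no number is shared between groups. The number of members called by edgeR moved as follows. Between 1 and 28 days in air of the single schedule it was 0 in place of 1 with all 48 libraries in one fit, with DESeq2, without a filter on low counts, with only the 12 libraries compared and with the marker sums of other tissues as covariates. In oil of the single schedule it was 0 in place of 2 with all 48 libraries (Psma2 at an adjusted p of 0.0708) and with those covariates (0.0585), 1 with DESeq2, without a filter, with only 12 libraries and without animals 43 and 5, and 4 with limma-voom. In the repeated schedule it was 1 in place of 2 in air without a filter, and 1 in place of 0 in oil with all 48 libraries. For oil against air 1 day after the repeated exposure it was 1 in place of 0 with DESeq2 and with limma-voom. Between the air groups at 1 day it was 1 in place of 3 without a filter and 6 with limma-voom and with the covariates, and at 28 days 2 in place of 0 with DESeq2. Leaving out each animal in turn gave 0 to 0 for the 4 comparisons of oil with air, for oil animals of the repeated schedule over time and for the ratio tests (without animal 43 or 32), 0 to 1 and 1 to 3 over time in air and oil of the single schedule, 0 to 2 in air of the repeated schedule and 0 to 3 between the air groups at 1 day. In every alternative run no called value changed its direction. Of 2232 alternative values of named members, 59 lost a call and 11 gained one. A further 23, uncalled both ways, moved by at least the standard error of the main estimate. The other 2139 kept their side of the threshold, and those of them uncalled both ways moved by less than that error. Depth limits Psme1-ps1 and Psmd10, the members of lowest level. The causes were not tested.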

Other observations

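An earlier look at these files found transcripts of other tissues at like counts in pairs of animals of the same rank of animal number across the schedules. Over those 24 pairs, with levels centred within groups, the median Pearson r of a member was 0.15, and that of all genes was 0.15. It was over 0.6 for 6 members (Psmd4, Psmf1, Psme3, Psmd3, Psma6 and Psmd1). Animals 5 and 43 form 1 of the pairs. Without it the median over members was 0.06 and 1 member stayed over 0.6, Psmd3 at 0.62, followed by Psmf1 at 0.59, Psmd4 at 0.58 and Psmd1 at 0.53. The labels do not tie these animals to each other, the fits over both schedules treat them as unrelated, and the values are a description.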
